A study of Mus musculus with 12 samples.

Results

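The genes described here encode 10 interferon-induced GTPases, 6 immunity-related GTPases (IRGs: Irgm1, Irgm2, Igtp, Iigp1, Ifi47 and Tgtp1) and 4 guanylate-binding proteins (GBPs: Gbp2, Gbp3, Gbp6 and Gbp7). They were chosen by symbol from the 54838 genes of the count table, through their Ensembl identifiers, and each was found once. RNA-seq was done on whole ileum, the last part of the small intestine, of 12 C57BL/6J mice. Mice drank normal water or water with 25 mM ZnSO4 for 7 days, were then injected with 200 µg dexamethasone (Dex, a synthetic glucocorticoid) in PBS or with PBS alone, and were sampled 2 h later. This gave 4 groups of 3 mice: water + PBS, water + Dex, ZnSO4 + PBS and ZnSO4 + Dex. All mice were wild type and 8 to 14 weeks old, and none received an inflammatory challenge in this experiment.

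IRGs and GBPs are large GTPases that cells make in response to interferons. They gather on the membranes around intracellular bacteria and parasites and help to break these compartments open. Among IRGs, the regulators Irgm1, Irgm2 and Igtp (Irgm3) sit on the cell's own membranes and hold the effectors Iigp1 (Irga6), Ifi47 (Irgd) and Tgtp1 (Irgb6) inactive, while GBPs also bind bacterial surfaces and lead the way to inflammasome activation. In the intestine, such genes have a basal expression that depends on interferon tone and on the microbiota.

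Interferons switch these genes on through 2 kinds of promoter elements, the interferon-stimulated response element (ISRE), and the gamma-activated site (GAS), which bind transcription factors that interferon receptors activate. The RefSeq promoter table (GRCm38.p6) held 8 of the 10 genes, not Iigp1 and Gbp6. On both strands, the ISRE core (GAAA, any 2 bases, GAAA) was found in the window from 250 bases before to 50 after the start in 7 of the 8 genes, against 3.44% of all 32851 promoter windows of that length. The GAS letters TTCNNNGAA were found in 4 of the 8 genes, Irgm2, Igtp, Tgtp1 and Gbp7, against 8.3% of all windows. The core of a glucocorticoid element, ACANNNTGT, was found in Ifi47 and Gbp3, against 6.85% of all windows. The 8 genes had 9 windows, as Gbp3 had a second start. Its glucocorticoid match lay only in that second window, 12 to 20 bases after the start. Counted on the strand of the gene alone, the ISRE core was in 4 of the 8 genes and in 1.74% of windows. Such a match is a description of the letters, and it shows no binding.

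The 150 bases before the start are printed 5′ to 3′ on the strand of the gene for the neighbours Irgm2 and Igtp, whose promoters are nearly identical around both elements, for a GBP with both elements (Gbp7) and for the gene with neither (Ifi47). Capitals mark ISRE cores, which on the other strand read TTTC, any 2 bases, TTTC, and GAS letters. The stretches lie on the plus strand of GRCm38.p6 at chr11:58214827-58214976 (Irgm2), chr11:58199406-58199555 (Igtp), chr3:142530186-142530335 (Gbp7) and chr11:49076437-49076586 (Ifi47), and none of their bases is in a GENCODE exon. In GENCODE a longer Irgm2 transcript starts next to Igtp, so the Irgm2 stretch also lies in an intron of that transcript.
Irgm2: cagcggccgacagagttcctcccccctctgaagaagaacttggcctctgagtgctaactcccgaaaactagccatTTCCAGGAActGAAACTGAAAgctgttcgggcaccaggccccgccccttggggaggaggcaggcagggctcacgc
Igtp: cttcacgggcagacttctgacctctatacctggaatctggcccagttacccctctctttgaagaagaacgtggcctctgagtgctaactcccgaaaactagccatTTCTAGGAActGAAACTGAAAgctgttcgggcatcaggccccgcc
Gbp7: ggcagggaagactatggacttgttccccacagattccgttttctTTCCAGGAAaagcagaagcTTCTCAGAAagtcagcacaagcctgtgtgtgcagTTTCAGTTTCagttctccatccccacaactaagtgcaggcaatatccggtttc
Ifi47: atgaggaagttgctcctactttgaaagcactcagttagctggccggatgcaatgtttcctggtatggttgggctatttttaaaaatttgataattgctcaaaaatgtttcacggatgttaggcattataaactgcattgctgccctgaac

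In Irgm2, Igtp and Tgtp1 a GAS stood just before the same ISRE core, GAAACTGAAA, with 2 bases between them. Aligned on that core without gaps, Irgm2 and Igtp were identical at 86 of 90 bases, from 60 bases before the core's first base onwards. Irgm2 and Tgtp1 shared 49 of the 90 bases, and Igtp and Tgtp1 shared 47. The ISRE core of Irgm2 began 64 bases before the start, that of Igtp 34 and that of Tgtp1 77. Irgm1 held 2 overlapping cores, GAAATAGAAA and GAAACCGAAA, between 30 and 15 bases before the start. In its first window, Gbp3 held 2 overlapping cores on the other strand, between 45 and 30 bases before the start. The core of Gbp2 lay 59 to 50 bases before its start.

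The libraries were alike in depth, with 10760132 to 11827487 counted reads each, and all 10 genes passed the filter on low counts that left 15938 genes for testing. Normalised counts are reads scaled to the mean effective library size of 11377723, given as mean ± SD (n = 3 mice per group). LFC is the log2 fold change with its standard error (SE), p-values are from edgeR's quasi-likelihood test, adjusted over all 15938 genes, and calls required both adjusted p < 0.05 and an absolute LFC over 0.8. Markers of enterocytes, Paneth cells, goblet cells and smooth muscle were abundant in all libraries, as in whole ileum. B cell markers varied within every group, from a sum of 294 to 5768 in water + PBS mice and from 128 to 616 in ZnSO4 + Dex mice. Of the 3 water + PBS libraries, replicate 3 was the lowest for all 10 genes, and what changed without it is given with each comparison against this group.

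Compared per length, in FPKM (reads per kilobase of exon, scaled to library size), the level in untreated ileum was highest for Igtp at 36.0 ± 13.9 FPKM, followed by Ifi47 at 33.8 ± 8.39, Irgm2 at 27.3 ± 9.95 and Gbp2 at 26.0 ± 8.16. The mean ± SD ranges of these 4 genes overlapped. Irgm1 followed at 15.7 ± 3.11 FPKM, then Iigp1 at 8.21 ± 2.58, Gbp3 at 7.15 ± 1.16 and Gbp7 at 6.23 ± 1.02, of which the last 3 did not differ beyond their spread. Gbp6 at 2.05 ± 0.551 FPKM and Tgtp1 at 1.004 ± 0.328 were the lowest, and both levels are uncertain, as given below. In ZnSO4 + Dex mice the order had changed, with Gbp2 at 15.6 ± 5.16, Ifi47 at 15.1 ± 1.35 and Irgm1 at 13.7 ± 1.81 FPKM the highest, and Igtp at 6.95 ± 2.46 and Irgm2 at 6.61 ± 1.87 behind them.

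**Figure D1:**
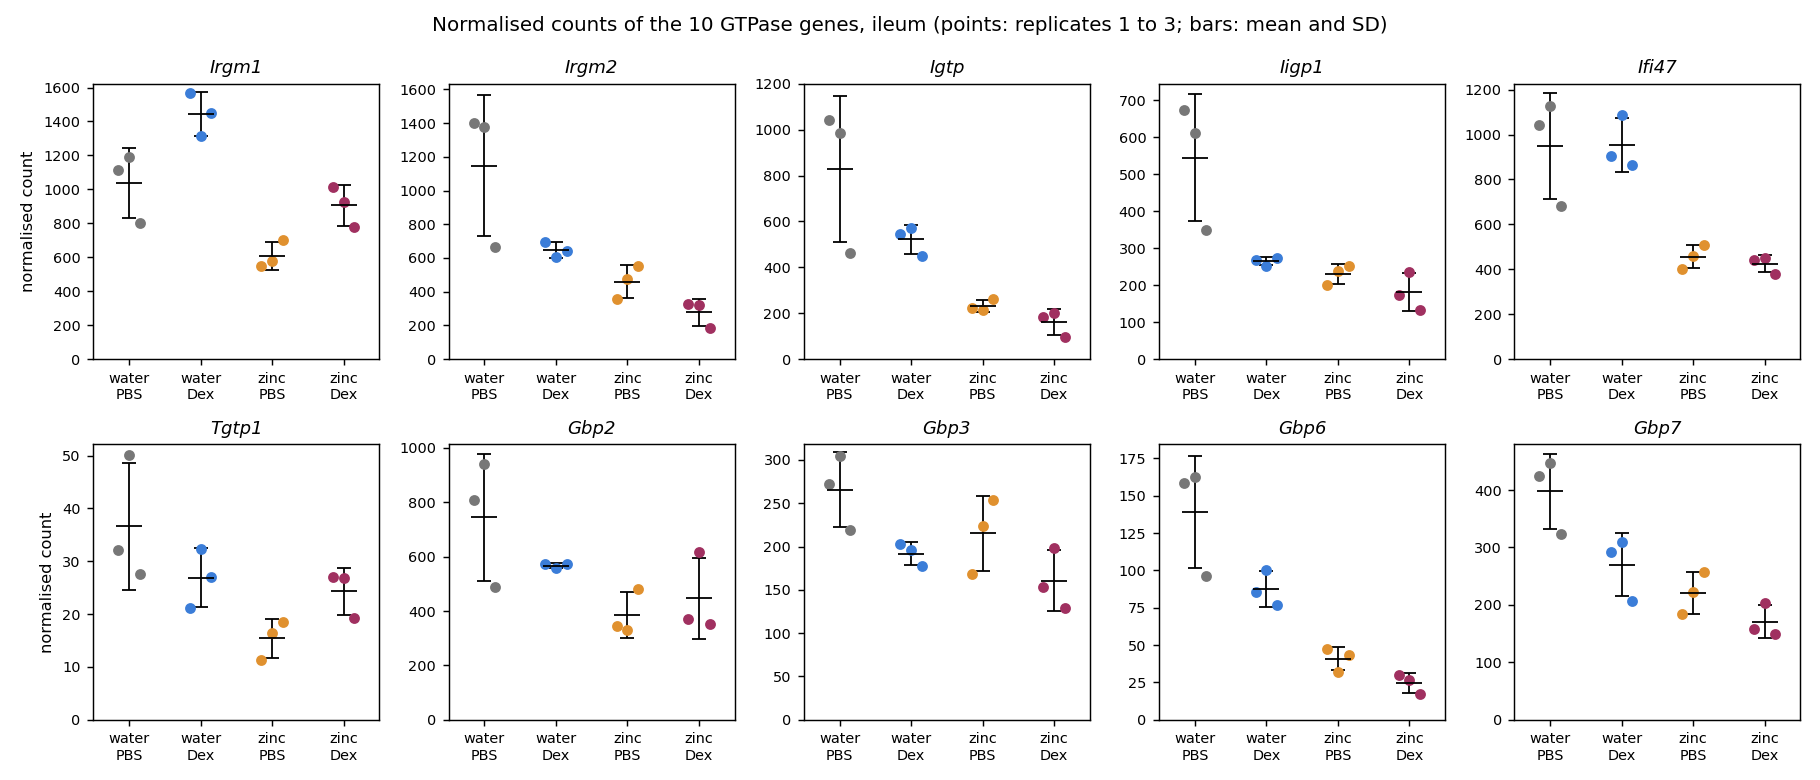
Normalised counts (vertical axis, from 0) of the 10 GTPase genes in the 4 groups; points are mice (replicates 1 to 3 from left to right), bars mean and SD. Irgm2, Igtp, Ifi47 and Gbp6 are lower in ZnSO4 mice than in water mice with either injection, and Irgm1 is highest in water + Dex mice.

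The first comparison asks what ZnSO4 does to these genes without Dex. ZnSO4 + PBS mice had lower means of all 10 genes than water + PBS mice, and 7 genes were called lower: Igtp, Gbp6, Irgm2, Iigp1, Tgtp1, Ifi47 and Gbp7. Over all genes tested, 0.954% were called lower. By adjusted p alone 8 of the 10 were lower, Irgm1 included, against 2.54% of all genes. The median LFC of the 10 genes was -1.15, against -0.01 over all genes, and in 9 of the 10 the groups did not overlap, which 12.9% of all genes showed in this direction. In whole tissue, fewer cells of a type and less RNA per cell cannot be told apart.

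Among the IRG regulators, Igtp had 1041, 984 and 461 normalised counts in water + PBS mice and 223, 213 and 261 in ZnSO4 + PBS mice. Even the low water mouse was above every ZnSO4 mouse. The level fell to 28.0% of that in water mice (LFC -1.83, SE 0.31, adjusted p = 0.0074 by edgeR). Igtp is at chr11:58199556-58207591, on the plus strand, and its exons overlap those of Irgm2, its neighbour on the same strand, in 8.01% of their bases.

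Irgm2 (chr11:58199618-58222782, plus strand) had 1400, 1378 and 665 normalised counts in water + PBS mice and 356, 473 and 550 in ZnSO4 + PBS mice. The groups did not overlap, but the low water mouse was close to the highest ZnSO4 mouse. Irgm2 fell to 40.1% (LFC -1.32, SE 0.28, adjusted p = 0.023 by edgeR).

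Irgm1 (chr11:48861968-48871683, minus strand) is the regulator best known for its role in autophagy and in resistance to mycobacteria. It had 1114, 1193 and 804 normalised counts in water + PBS mice and 546, 579 and 701 in ZnSO4 + PBS mice, again without overlap. It fell to 58.7% (LFC -0.77, SE 0.15, adjusted p = 0.018 by edgeR), just short of the LFC cut-off.

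All 3 IRG effectors were called lower. Iigp1 (chr18:60376027-60392634, plus strand), which builds up on the vacuoles of Toxoplasma, had 672, 610 and 350 normalised counts in water + PBS mice and 200, 237 and 251 in ZnSO4 + PBS mice (LFC -1.25, SE 0.24, adjusted p = 0.015 by edgeR). Ifi47 (chr11:49076587-49096974, plus strand) had 1042, 1127 and 682 and then 403, 458 and 506 normalised counts (LFC -1.06, SE 0.17, adjusted p = 0.0060). The lowest water mouse lay above the highest ZnSO4 mouse for both.

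Tgtp1 (chr11:48985327-48994172, minus strand) had few reads, 32.1, 50.2 and 27.6 normalised counts in water + PBS mice and 11.3, 16.5 and 18.5 in ZnSO4 + PBS mice (LFC -1.24, SE 0.29, adjusted p = 0.037 by edgeR). Of its 31-base stretches, 83.2% are also in its near copy Tgtp2, and reads with more than 1 position were left out of the counts, so the level of Tgtp1 is uncertain. Tgtp2 had 69.0 ± 8.11 and 38.6 ± 9.18 normalised counts in the same groups (LFC -0.84, SE 0.22, adjusted p = 0.050, not under the threshold).

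Among the GBPs, Gbp6 (chr5:105270702-105293698, minus strand) had 159, 162 and 96.0 normalised counts in water + PBS mice and 47.1, 32.0 and 43.5 in ZnSO4 + PBS mice. It fell to 29.4% (LFC -1.76, SE 0.25, adjusted p = 0.0031 by edgeR) and ranked 87 by p among all genes, the first of the 10. Of the 31-base stretches of Gbp6, 67.8% are also in the predicted gene Gm43302, so the level of Gbp6 is uncertain too. The study's appendix lists Gbp6 under another Ensembl identifier, at a higher level and also lower with ZnSO4. That entry is not described here.

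Gbp7 (chr3:142530342-142550149, plus strand) had 424, 447 and 324 normalised counts in water + PBS mice and 184, 222 and 257 in ZnSO4 + PBS mice (LFC -0.85, SE 0.19, adjusted p = 0.029 by edgeR). Gbp2 (chr3:142620602-142638008, plus strand), which targets bacterial vacuoles, had 807, 941 and 486 and then 344, 330 and 482, and did not pass (LFC -0.95, SE 0.26, adjusted p = 0.060). For Gbp2 the low water mouse was just above the high ZnSO4 mouse. Gbp3 (chr3:142560026-142573209, plus strand) was the gene with overlapping groups, with 219.5 to 305 normalised counts in water mice and 169 to 254 in ZnSO4 mice (LFC -0.30, SE 0.19, adjusted p = 0.41).

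**Figure D2:**
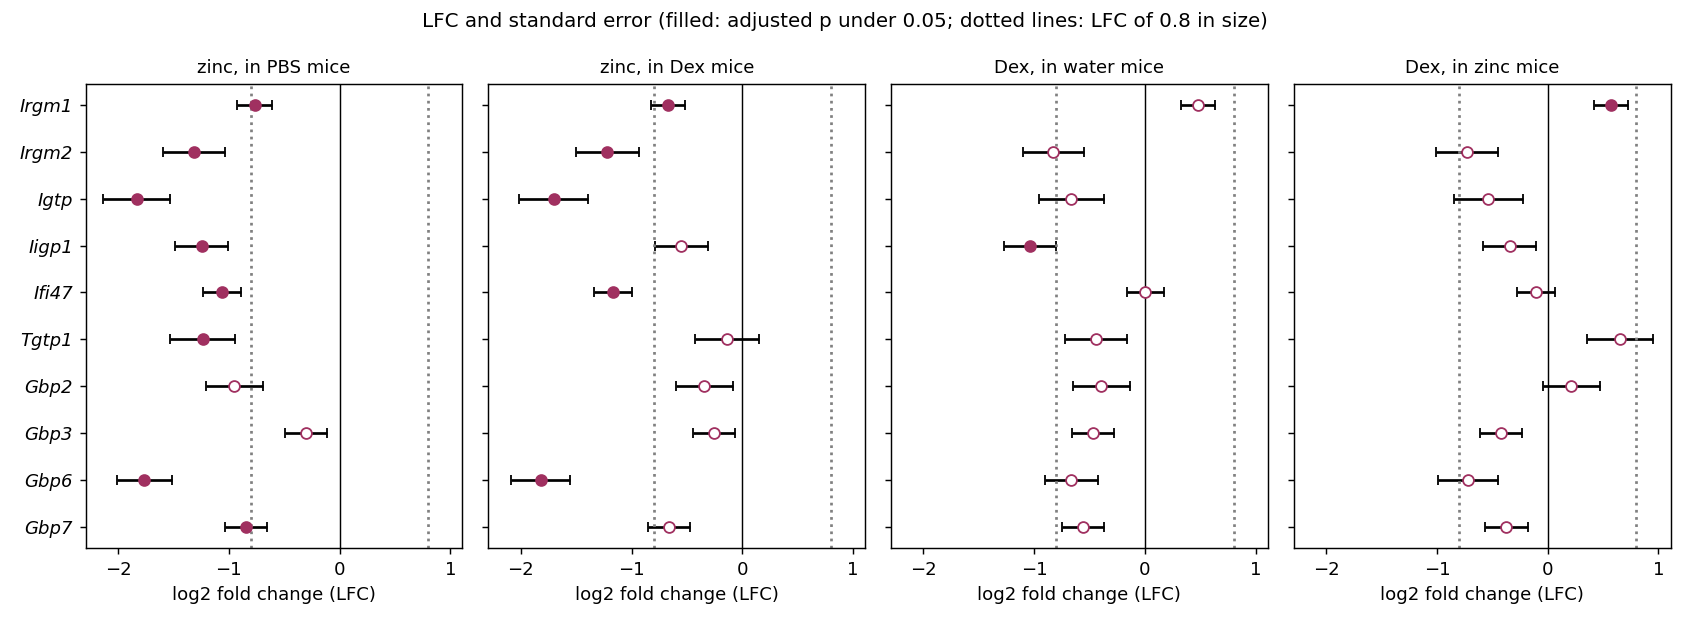
LFC of each gene (horizontal axis, log2 scale; points with SE) for ZnSO4 in PBS and in Dex mice and for Dex in water and in ZnSO4 mice; filled points passed an adjusted p of 0.05, and dotted lines mark an LFC of 0.8 in size. ZnSO4 points lie left of 0 for every gene, while the Dex points of Irgm1 lie to the right, at 0.48 and 0.57.

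The count of 7 depended on single libraries. It was 3 without water + PBS replicate 1 or ZnSO4 + PBS replicate 1, 4 without replicate 2 of either group, and 9 without water + PBS replicate 3, and it was 4 with these groups alone in the model. Without that replicate 3, the LFC was -2.12 for Igtp (adjusted p = 0.0013 by edgeR) and -1.59 for Irgm2 (adjusted p = 0.0041), and the added calls were Irgm1 (LFC -0.92, adjusted p = 0.0056) and Gbp2 (LFC -1.18, adjusted p = 0.021). Igtp, Ifi47 and Gbp6 were called in each of the 12 fits that left out 1 library.

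Lymphocyte markers moved with ZnSO4 too. The summed level of 10 markers of T, NK and innate lymphoid cells lay between 2226 and 3164 normalised counts in water + PBS mice and between 2636 and 4371 in water + Dex mice, but between 964 and 1077 in ZnSO4 + PBS mice and between 995 and 1324 in ZnSO4 + Dex mice. None of the 10 was at 0 in every library. Gzma and Gzmb, at means of 1274.5 and 564 normalised counts in water + PBS mice, made up most of the sum in water mice. Of the 9 that could be tested, 3 were called lower with ZnSO4 alone, Gzmb (LFC -2.33), Gzma (-1.86) and Cd8a (-1.14), against 0.954% of all genes. With ZnSO4 in Dex mice 6 were called lower, against 1.2% of all genes. The rest of the 9 did not pass with ZnSO4 alone, with LFCs from -0.26 (Klrb1c) to -0.82 (Cd3g). Their part in the change of the GTPase genes was not tested.

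Within water + PBS mice, replicate 3 was the lowest both in the GTPase genes and in these markers. Summed over the 10 genes, it had 4115 normalised counts against 6963 and 7197 in the other two mice, and its lymphocyte sum was 2226 against 3164 and 3135. Water + Dex replicate 2 had the highest lymphocyte sum of all, 4371, with a GTPase sum of 5021 next to 5156 and 4739 in its group. How the lymphocyte sum and the GTPase sum are related was not tested.

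**Figure D3:**
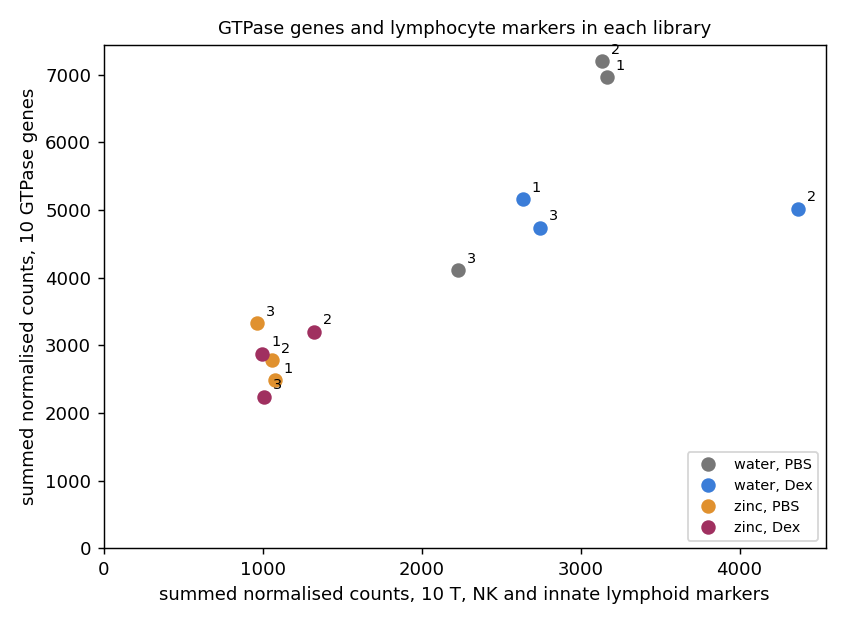
Summed normalised counts of the 10 GTPase genes (vertical axis) against those of 10 T, NK and innate lymphoid cell markers (horizontal axis), 1 point per library with its replicate number. The 6 ZnSO4 libraries reach 1324 on the marker axis and 3323 on the GTPase axis, and the 6 water libraries start at 2226 and 4115. Gzma and Gzmb make up most of the marker sum in water mice.

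The second comparison asks what Dex does 2 h after injection. In water mice, 1 of the 10 genes was called lower, Iigp1, against 1.64% of all genes. In 8 of the 10 the LFC was below 0, in 3 the groups did not overlap (14.5% of all genes in this direction), and the median LFC was -0.52 against -0.01 over all genes. Iigp1 had 672, 610 and 350 normalised counts in water + PBS mice and 269, 252 and 272 in water + Dex mice, and the groups did not overlap (LFC -1.04, SE 0.24, adjusted p = 0.016 by edgeR). That call was lost, at adjusted p between 0.052 and 0.060, when any 1 of the 3 water + Dex mice, or water + PBS replicate 1 or 2, was left out. Without water + PBS replicate 3, the LFC of Iigp1 was -1.28 (adjusted p = 0.0022), and Irgm2 (LFC -1.10, adjusted p = 0.011), Igtp (LFC -0.96, adjusted p = 0.032) and Gbp6 (LFC -0.87, adjusted p = 0.039) were called as well.

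Irgm2 had 696, 603 and 642 normalised counts in water + Dex mice, 56.4% of the water + PBS mean, with an adjusted p of 0.089 by edgeR and 0.025 by DESeq2. The low water + PBS mouse, at 665, stood inside the Dex range. Igtp was at 63.0% and Gbp6 at 63.1% of the water + PBS mean, both with overlapping groups (adjusted p = 0.20 and 0.11). Ifi47 had 953 ± 119 against 950 ± 236 normalised counts (LFC 0.005, SE 0.17, adjusted p = 0.99), a difference far below the spread.

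Irgm1 had its higher level with Dex in both water and ZnSO4 mice. It had 1568, 1312 and 1449 normalised counts in water + Dex mice, all above the highest water + PBS mouse at 1193 (LFC 0.48, SE 0.15, adjusted p = 0.075 by edgeR and 0.032 by DESeq2). In ZnSO4 mice, Irgm1 had 546, 579 and 701 normalised counts with PBS and 1014, 923 and 777.5 with Dex. There it rose past the adjusted p threshold, with an LFC below the cut-off in size (LFC 0.57, SE 0.15, adjusted p = 0.029), and missed it, at 0.070 to 0.11, without replicate 1 or 2 of either ZnSO4 group.

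None of the 10 genes was called with Dex in ZnSO4 mice, where 2.4% of all genes were called lower and 3.41% higher. At an unadjusted p under 0.05 there were 4 (Irgm1, Irgm2, Gbp3 and Gbp6), against 26.3% of all genes, and DESeq2 called 0. By adjusted p alone 1 was higher, Irgm1, against 6.65% of all genes, and in 3 the groups did not overlap with Dex lower, against 14.9%. Irgm2 had 326, 320 and 187 normalised counts in ZnSO4 + Dex mice, each below the ZnSO4 + PBS mice (LFC -0.73, SE 0.28, adjusted p = 0.12 by edgeR). Its adjusted p was 0.049 by DESeq2, at an LFC of -0.74, and 0.04 by edgeR without water + PBS replicate 3. Gbp6 had 30.1, 26.9 and 17.1 normalised counts in ZnSO4 + Dex mice (LFC -0.72, SE 0.27, adjusted p = 0.11 by edgeR). The LFCs of Tgtp1 (0.66, SE 0.30, adjusted p = 0.19) and Gbp2 (0.21, SE 0.26, adjusted p = 0.66) were above 0.

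Given to mice that also received Dex, ZnSO4 lowered 4 of the 10 genes past both cut-offs, Igtp, Gbp6, Irgm2 and Ifi47, against 1.2% of all genes. By adjusted p alone 5 were lower, against 2.54%, and in 7 the groups did not overlap, against 13.2%. Igtp had 545, 570 and 449.5 normalised counts in water + Dex mice and 185, 200 and 95.0 in ZnSO4 + Dex mice (LFC -1.70, SE 0.31, adjusted p = 0.011 by edgeR). Gbp6 had 85.8, 100 and 76.7 in the first group and then the 17.1 to 30.1 given above (LFC -1.82, SE 0.27, adjusted p = 0.0036). In both genes every ZnSO4 mouse was far below every water mouse.

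Ifi47 had 905, 1089 and 866 normalised counts in water + Dex mice and 441, 451 and 380 in ZnSO4 + Dex mice (LFC -1.17, SE 0.17, adjusted p = 0.0036 by edgeR). Irgm2 was at 647 ± 46.7 and 277 ± 78.5 (LFC -1.22, SE 0.28, adjusted p = 0.034), and its call was lost when any 1 of the 6 mice of these groups was left out (adjusted p = 0.061 to 0.11). Irgm1 passed the adjusted p threshold at an LFC of -0.67 (SE 0.15, adjusted p = 0.030). It missed the threshold with the replicate number as a block (0.050) and when any 1 of these 6 mice other than ZnSO4 + Dex replicate 1 was left out (0.062 to 0.12). The other 5 genes had LFCs between -0.66 (Gbp7, adjusted p = 0.082) and -0.14 (Tgtp1, adjusted p = 0.84).

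Whether the ZnSO4 effect differed between PBS and Dex mice was tested as an interaction. No gene passed, neither among the 10 nor among all 15938 (0%), by edgeR or by DESeq2. At an unadjusted p under 0.05 edgeR gave 1 of the 10, Tgtp1, and 794 of all genes (4.98%). The interaction of Tgtp1 was 1.10 (SE 0.41, unadjusted p = 0.021, adjusted p = 0.95), from an LFC with ZnSO4 of -1.24 in PBS mice and -0.14 in Dex mice. That of Iigp1 was 0.70 (SE 0.34, unadjusted p = 0.061, adjusted p = 0.95) and that of Gbp2 was 0.61 (adjusted p = 0.95 by edgeR). Gbp7 had 0.19, and the interactions of Irgm1, Irgm2, Igtp, Ifi47, Gbp3 and Gbp6 lay between -0.11 and 0.13.

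With both treatments, 6 of the 10 genes were called lower than in untreated mice, against 4.56% of all genes, with a median LFC of -1.19 (-0.005 over all genes). In 8 of the 10 the groups did not overlap, against 18.9% of all genes. Gbp6 was at 17.8% of the water + PBS level (LFC -2.48, SE 0.26, adjusted p = 6.3e-05 by edgeR), Igtp at 19.3% (LFC -2.37, SE 0.31, adjusted p = 0.00028) and Irgm2 at 24.2% (LFC -2.05, SE 0.29, adjusted p = 0.00043). Iigp1 followed at 33.2%, Gbp7 at 42.8% and Ifi47 at 44.6% (adjusted p = 0.00070, 0.00089 and 0.00057). These 6 calls held in all 12 fits that left out 1 library. Without water + PBS replicate 3, the LFC was -2.69 for Gbp6, -2.66 for Igtp and -2.32 for Irgm2, and Gbp2 (LFC -0.97, adjusted p = 0.014) and Gbp3 (LFC -0.85, adjusted p = 0.014) were called too.

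The remaining 4 genes were closer to the untreated level. Gbp3 fell to 60.4% (LFC -0.72, SE 0.19, adjusted p = 0.017 by edgeR), short of the LFC cut-off, and missed the adjusted p threshold without water + PBS replicate 2 or ZnSO4 + Dex replicate 1 or 3 (0.058 to 0.061). Gbp2 was at 59.9% (adjusted p = 0.058), Tgtp1 at 66.5% (adjusted p = 0.16) and Irgm1 at 87.3% (adjusted p = 0.39). Irgm1 had 777.5 to 1014 normalised counts with both treatments and 804 to 1193 in untreated mice, so the groups overlapped.

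ZnSO4 and Dex were also set directly against each other, so that the shared water + PBS mice dropped out. Of the 10 genes, 4 were called lower with ZnSO4 than with Dex, against 4.24% of all genes. Irgm1 had 609 ± 81.7 normalised counts with ZnSO4 and 1443 ± 128 with Dex (LFC -1.25, SE 0.15, adjusted p = 0.00023 by edgeR). The others were Igtp (LFC -1.17, adjusted p = 0.020), Gbp6 (-1.10, adjusted p = 0.011) and Ifi47 (-1.07, adjusted p = 0.0012). Igtp lost its call without replicate 1 or 2 of either group (adjusted p = 0.060 to 0.066). Iigp1, called with either treatment alone, had an LFC of -0.20 between them (SE 0.24, adjusted p = 0.62).

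The other genes of both families moved in part alike. Of 11 further IRG genes, 9 were tested and 2 were called lower with ZnSO4 alone, against 0.954% of all genes. Gm12250, which encodes the effector Irgb10 (annotated here as a pseudogene), had 249, 207 and 130 normalised counts in water + PBS mice and 49.97, 43.0 and 53.7 in ZnSO4 + PBS mice (LFC -1.995, SE 0.24, adjusted p = 0.0012 by edgeR). With Dex it had 211, 217 and 194.5 in water mice and 62.2, 63.4 and 39.5 in ZnSO4 mice (ZnSO4 within Dex: LFC -1.91, SE 0.24, adjusted p = 0.0016), so all ZnSO4 mice were below all water mice.

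Gm5431, the second, went up with Dex. It had 432, 429 and 159 normalised counts in water + PBS mice, 1132, 1166 and 1212 with Dex (LFC 1.78, SE 0.32, adjusted p = 0.0042 by edgeR) and 102, 103 and 110 in ZnSO4 + PBS mice (LFC -1.69, SE 0.34, adjusted p = 0.019). In ZnSO4 + Dex mice it had 1001, 520 and 607 (Dex within ZnSO4: LFC 2.75, SE 0.35, adjusted p = 0.00030). Of its 31-base stretches, 36.7% are also in 9930111J21Rik1.

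Of 8 further GBP genes, 6 were tested and all 6 had an LFC below 0 with ZnSO4 alone. Gbp8 passed, with 242 ± 20.4 normalised counts in water + PBS and 117 ± 24.0 in ZnSO4 + PBS mice (LFC -1.04, SE 0.20, adjusted p = 0.014 by edgeR). Gbp4 and Gbp5 fell with Dex, Gbp4 from 223 ± 37.0 to 109 ± 10.5 normalised counts (LFC -1.04, adjusted p = 0.0059) and Gbp5, which assembles on inflammasomes, from 206 ± 70.6 to 86.1 ± 23.4 (LFC -1.26, adjusted p = 0.018). With both treatments 4 of the 6 were called lower, against 4.56% of all genes, with Gbp5 lowest at an LFC of -1.83 (SE 0.30, adjusted p = 0.0012).

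**Figure D4:**
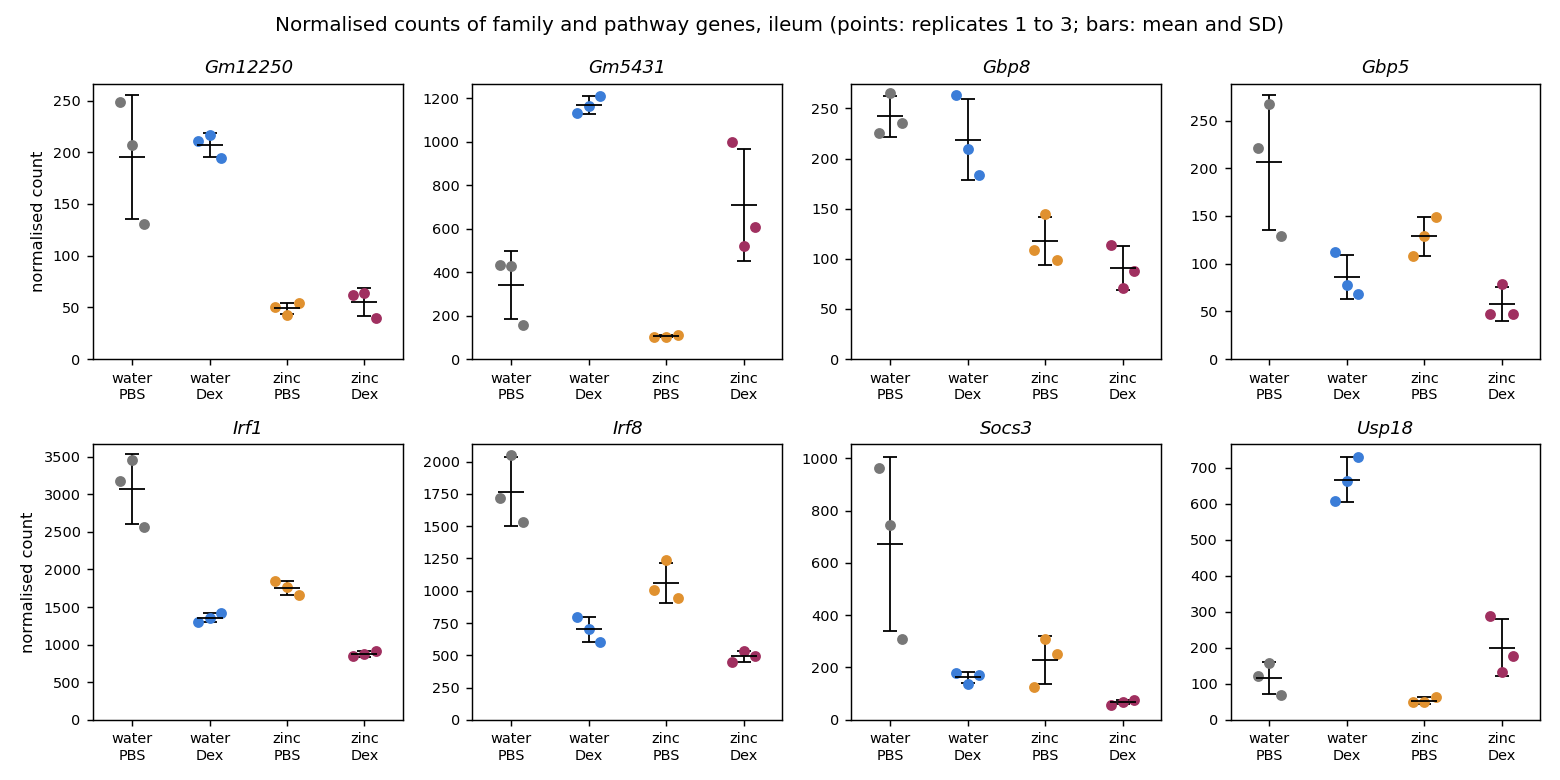
Normalised counts (vertical axis, from 0) of 4 further family genes and 4 genes of interferon signalling in the 4 groups; points are mice (replicates 1 to 3 from left to right), bars mean and SD. Gm12250 and Gbp8 are low in all ZnSO4 mice, Gm5431 is high with Dex, and Usp18 is high in water + Dex mice. Irf1 and Irf8 are lower with each treatment.

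Upstream of these genes, the 6 interferon ligands listed were hardly measurable. No interferon alpha gene was among them. Ifng had 0 to 6 reads per library, Ifnb1, Ifnl2 and Ifnl3 had 0 reads in all 12 (a count of 0 allows up to 3 reads), and none of the 6 ligands listed could be tested. None of 6 receptor chains and 3 Janus kinases passed with ZnSO4, and their LFCs lay between -0.36 and 0.18. With Dex, the interferon lambda receptor Ifnlr1 was lower, with 268, 248 and 289.8 normalised counts in PBS mice and 137, 144 and 137 after injection (adjusted p = 0.0071 by edgeR, LFC -0.95, SE 0.19).

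Among the transcription factors listed, Irf1 and Irf8 fell with each treatment. Irf1, a transcription factor that binds ISREs, had 3183, 3462 and 2564 normalised counts in water + PBS mice, 1844, 1773 and 1657 with ZnSO4 (LFC -0.80, SE 0.10, adjusted p = 0.0015 by edgeR), 1300, 1353 and 1422 with Dex (LFC -1.18, SE 0.10, adjusted p = 2.2e-05) and 843, 868 and 921 with both (LFC -1.81, SE 0.10, adjusted p = 8.1e-07). The 4 groups did not overlap. Irf8 was at 1769 ± 265, 1062 ± 155, 701 ± 94.9 and 491 ± 43.2 in the same order, and fell with each treatment (adjusted p = 0.014 with ZnSO4 and 0.00010 with Dex). Stat2 fell with ZnSO4 (LFC -0.43, SE 0.10, adjusted p = 0.038) and was called with both treatments (LFC -0.95, SE 0.10, adjusted p = 7.3e-05).

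Among 5 inhibitors of interferon signalling, the suppressors Socs1 and Socs3 fell with either treatment. Socs1 had 122 ± 27.2 normalised counts in water + PBS mice, 45.7 ± 5.32 with ZnSO4 and 24.4 ± 3.35 with Dex (adjusted p = 0.032 and 0.0012 by edgeR). Usp18, which removes the ubiquitin-like ISG15 and blocks the type I interferon receptor, had 122, 158 and 69.4 normalised counts in water + PBS mice and 607, 664 and 730.5 with Dex (LFC 2.52, SE 0.31, adjusted p = 0.00029). With ZnSO4 added to Dex it had 289, 134 and 178 (ZnSO4 within Dex: LFC -1.74, SE 0.29, adjusted p = 0.0075).

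Across the 12 libraries, each gene was compared with the mean z score of the other 9, as a description of how alike the profiles were over libraries that share groups. Pearson's r lay between 0.89 and 0.97 for Igtp, Irgm2, Gbp6, Gbp7, Ifi47, Iigp1 and Gbp2, and was 0.74 for Gbp3, 0.73 for Tgtp1 and 0.56 for Irgm1. The 5 other genes most like the mean profile of all 10 were Tapbpl (r = 0.97), which edits peptides for MHC class I, Ighv1-69 (0.97), an antibody heavy chain segment, Gusb (0.95) and Ppt1 (0.94), both lysosomal enzymes, and Il18rap (0.94), a chain of the IL-18 receptor. Tapbpl had 710 normalised counts in water + PBS, 621 in water + Dex, 498 in ZnSO4 + PBS and 464 in ZnSO4 + Dex mice on average.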

How the data were processed

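According to the study's methods and the submitters' processing notes, the authors made stranded ileum libraries, sequenced them single-end, mapped reads to mm10 with HISAT2 2.0.4 and obtained gene counts with featureCounts from which multimapping reads were excluded. The notes also name Trimmomatic and SAMtools. The deposited values are raw counts of 54838 Ensembl genes. The annotation release and strand setting are not given in the sources used here. A gene with a near copy loses reads under such counting.

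Symbols, positions and exon overlaps were taken from GENCODE M21 (GRCm38, the assembly of mm10), which matched 54809 identifiers. Counts were filtered with filterByExpr (minimum count 10), which kept 99.83% of reads, normalised by TMM and fitted with edgeR 4.0.16 (glmQLFit, glmQLFTest, R 4.3.3) with 4 group means over all 12 libraries, without covariates. Benjamini-Hochberg adjustment was over 15938 genes. FPKM was computed from normalised counts and summed exon length. SD is the spread between the mice of a group, and p-values test group means against a spread between mice estimated from all 4 groups. Pairs of libraries within a group differed by more than sampling noise (chi-square per degree of freedom of at least 7.84).

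The 10 genes and all lists were chosen with earlier results of these data known. The genes named were the 10, the 5 genes most like the mean profile, and listed family and pathway genes that passed an adjusted p of 0.05. Not every listed gene that passed in a comparison is named. Others are named where a value bears on 1 of the 10. Alternatives were DESeq2 1.42.0, other scaling factors, filters and cut-offs, the compared groups alone, the replicate number as a block, and leaving out each library. Same-numbered mice did not deviate together (median r of residuals -0.056 over 18 pairs, 0.023 over 36 pairs with different numbers), and no pairing was used. In simulated data for ZnSO4 + PBS against water + PBS over 15938 genes, 57% of 100 genes changed 2-fold and 84% of 100 changed 4-fold were called, with 5 false calls. Promoter windows are from RefSeq (GRCm38.p6). Protein sequences were not used here, and 1 listed pathway gene is not reported here.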

Additional observations from a re-analysis of the deposited data

How the results depend on the processing

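The 7 calls with ZnSO4 alone were 4 when the 2 groups were fitted alone, and 3 to 9 when 1 library was left out. The single call with Dex was 2 with DESeq2 and 2 with all genes of at least 1 count (Irgm2 was added in both), and 0 to 4 without 1 library. The cause was not tested. With no LFC cut-off, the 0 calls of Dex in ZnSO4 mice became 1 (Irgm1). Leaving out 1 library gave 3 to 4 calls for ZnSO4 in Dex mice, 6 to 8 for both treatments against neither, 3 to 4 for ZnSO4 against Dex, and 0 for Dex in ZnSO4 mice and the interaction. The replicate number did not pair the mice. As a block it left the calls at 7, 1, 4, 0, 6 and 4 in the 6 comparisons and at 0 for the interaction, and took Irgm1 out of the adjusted p threshold with ZnSO4 in Dex mice (0.050) and with Dex in ZnSO4 mice (0.051).

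Signs changed in values near 0. The Dex LFC of Ifi47 was -0.009 with upper-quartile factors and -0.186 to 0.145 without 1 library. The interaction of Igtp was -0.004 with the replicate block and -0.084 to 0.418 without 1 library. Without 1 library, the LFC of Tgtp1 with ZnSO4 in Dex mice was -0.284 to 0.024, that of Gbp2 with Dex in ZnSO4 mice -0.093 to 0.405, and the interactions -0.019 to 0.247 for Irgm1, -0.084 to 0.373 for Irgm2, -0.250 to 0.081 for Ifi47, -0.139 to 0.180 for Gbp3 and -0.222 to 0.148 for Gbp6. Of the 10 genes in 7 contrasts, 462 values under other settings and 760 without 1 library kept both sign and side of the adjusted p threshold. Under other settings 6 lost it, 10 gained it and 2 changed sign, and without 1 library 49 lost it, 8 gained it and 23 changed sign. With a median of 11388606 reads, Tgtp1 was near the limit, at 11.3 to 50.2 normalised counts. The ISRE core is read on both strands, and its share of 3.44% was 1.74% on the strand of the gene.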

Other observations

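GBPs act upstream of the noncanonical inflammasome, in which caspase-11 (Casp4) senses bacterial lipopolysaccharide and cleaves gasdermin D (Gsdmd) to open pores in the membrane. None of the 6 inflammasome genes tested passed with ZnSO4 alone. All 6 had an LFC below 0 there, from -0.49 (Gsdmd, adjusted p = 0.060 by edgeR) to -0.11 (Aim2). None of the 6 passed the interaction, with a lowest adjusted p of 0.95 by edgeR, so a different ZnSO4 effect in Dex mice was not shown. With ZnSO4 in Dex mice, Casp4 had 312 ± 73.5 against 627 ± 26.4 normalised counts (adjusted p = 0.0043 by edgeR, LFC -1.01, SE 0.15), Gsdmd had 1247 ± 274 against 2399 ± 33.7 (LFC -0.95, SE 0.14, adjusted p = 0.0030) and Casp1 fell by a smaller step (LFC -0.33, adjusted p = 0.023). In untreated mice Casp4 was at 802 ± 40.7 and Gsdmd at 2487 ± 207. Casp1, the caspase of canonical inflammasomes, fell with Dex from 2187 ± 87.4 to 1656 ± 110 (LFC -0.40, adjusted p = 0.0039).

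The conjugation machinery of autophagy places ubiquitin-like proteins on vacuole membranes, where IRGs and GBPs are recruited. Of 10 such genes, 8 passed in no comparison with untreated mice. Gabarapl1, whose product is one of these ubiquitin-like proteins, rose from 324 ± 12.8 normalised counts to 445 ± 49.9 with ZnSO4 (LFC 0.46, SE 0.11, adjusted p = 0.033 by edgeR), 537 ± 43.0 with Dex (LFC 0.73, SE 0.11, adjusted p = 0.0010) and 656 ± 68.8 with both (LFC 1.02, SE 0.11, adjusted p = 5.1e-05). Map1lc3b rose with Dex (LFC 0.39, adjusted p = 0.012) and with both (LFC 0.52, adjusted p = 0.0010).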
